A study of Mus musculus with 2 samples.

Results

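Arg1, Odc1, Tph1, Slc7a5, Slc7a8, Slc3a2 and Slc6a20a encode enzymes that use arginine, ornithine and tryptophan and transporters that carry amino acids across the plasma membrane. They were chosen by name, with earlier results of these data known, and all 7 were among the 17238 genes of the deposited count table. Their levels were read in IL7ra+ innate lymphoid cells (ILCs) sorted from small intestine and colon of C57BL/6 mice aged 8 weeks, labelled as fed, and sequenced as single cells with the 10x Genomics 3′ kit. Each tissue was 1 library from a pool of 8 mice, with no genotype or treatment named, and the labels give no gate beyond IL7ra+.

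Cells were grouped within each tissue by at least 1 unique molecular identifier (UMI, 1 captured transcript) of Ccr6, Ncr1, Gata3, Klrd1 or Cd3e. The Ccr6+ group held 541 small intestinal and 357 colonic cells, the Ncr1+ group 1605 and 665, the Gata3+ group 1643 and 4218, the Klrd1+ group 172 and 482, and the Cd3e+ group 429 and 1384. A further 1882 and 1615 cells carried none of the 5 transcripts. The groups overlap: 22.6% of small intestinal and 4.96% of colonic Gata3+ cells also had an Ncr1 UMI, and 5.61% and 32.6% of Ncr1+ cells also had a Klrd1 UMI.

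Lists of marker genes were read in each group to check what the marker transcripts select. Each ILC list and the T cell list include the gene that selects their group, so part of their sum there is set by the selection. Sums without that gene are not given here. Il7r, the gene of the receptor used in the sort, had a UMI in 83.7% of small intestinal and 67.5% of colonic cells. The ILC2 list summed to 3377 CPM (its UMIs scaled to 1000000 UMIs of the group) in small intestinal and 3895 CPM in colonic Gata3+ cells, but the list of NCR+ ILC3 genes came to 3219 CPM in small intestinal Gata3+ cells, against 1262 CPM in colonic ones. The list of CCR6+ ILC3 genes was highest in Ccr6+ cells (1735 and 1223 CPM), but so was the NCR+ ILC3 list, at 8776 and 7609 CPM, against 5590 and 3996 CPM in Ncr1+ cells. The ILC1 and NK list was highest in Klrd1+ cells (5799 and 5015 CPM), and it stood at 1467 CPM in small intestinal and 3389 CPM in colonic Ncr1+ cells. The T cell list was highest in Cd3e+ cells (6605 and 5044 CPM). The macrophage and dendritic cell list reached at most 36.2 CPM in any marker group and the epithelial list at most 17.5 CPM.

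The B and plasma cell list differed widely between tissues. It summed to 2832 CPM in small intestinal and 108 CPM in colonic Ncr1+ cells, to 1952 and 375 CPM in Gata3+ cells, to 292 and 1690 CPM in Klrd1+ cells, and to 19340 and 11450 CPM in cells with none of the markers. Nearly all of it was the antibody transcripts Igkc, Igha and Jchain, while the B cell genes Ms4a1 and Cd79a each stood at 2.74 CPM or less in Ncr1+ and Gata3+ cells. Over 10 UMIs of these antibody transcripts were held by 13 small intestinal and 10 colonic cells, so the sums of a group can rest on few cells. The part of the list in the tissue differences was not tested.

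Arginase and ornithine decarboxylase act one after the other: arginase splits arginine into ornithine and urea, and ornithine decarboxylase turns ornithine into putrescine, the first polyamine. Tryptophan hydroxylase starts the synthesis of serotonin outside the brain. The light chains Slc7a5 and Slc7a8 carry large neutral amino acids and reach the cell surface bound to the heavy chain Slc3a2, while Slc6a20a moves proline and related imino acids together with sodium. In the mouse, arginase is a known product of ILC2 and tryptophan hydroxylase has also been described in them.

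The libraries held 15080081 and 22332691 UMIs in 5490 small intestinal and 7549 colonic cells, with medians of 2579 and 2600 UMIs per cell. Levels are UMIs summed over a group's cells and scaled to CPM, with exact Poisson 95% intervals, and ratios of 2 levels carry exact conditional binomial 95% intervals. Each tissue being a single library, no test could be made: the intervals cover counting error only, and a difference between tissues cannot be told apart from a difference between these 2 libraries. A gene was counted as higher on one side when it had at least 20 UMIs over both sides and differed by at least 2-fold. RNA free in the suspension was estimated to make up 5.35% of the small intestinal and 8.25% of the colonic UMIs in cells.

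Arg1 (chromosome 10, 24915221 to 24927484 on the minus strand, GRCm38), the arginase of the cytosol, was spread over several groups in the small intestine and led by Gata3+ cells in the colon. In the small intestine it stood at 290 CPM (interval 276 to 306) in Gata3+ cells, 274 (247 to 303) in Ccr6+ cells and 270.0 (255 to 285) in Ncr1+ cells, whose intervals overlapped. In the colon it stood at 365 CPM (355 to 375) in Gata3+ cells, 239 (219 to 260.1) in Ncr1+ cells and 121 (105 to 139) in Ccr6+ cells, and these 3 intervals did not overlap. Klrd1+ and Cd3e+ cells were lowest in the small intestine (106 and 101 CPM), and in the colon they lay beside Ccr6+ cells (131 and 132 CPM).

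The cells with none of the 5 marker transcripts held much of the small intestinal Arg1. Their level was 394 CPM (376 to 412) in the small intestine and 258 CPM (243 to 274) in the colon, and the highest count in 1 cell, 31 UMIs, was found among the small intestinal ones. After each cell was thinned to 1000 UMIs, Arg1 was detected in 21.2% of small intestinal and 26.2% of colonic Gata3+ cells. In cells with a Cd3e UMI and no other marker, which were taken as cells that should lack Arg1, the shares were 4.61% and 5.29%, at median depths of 2394 and 2248 UMIs against 2901 and 2766 in Gata3+ cells.

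**Figure D1:**
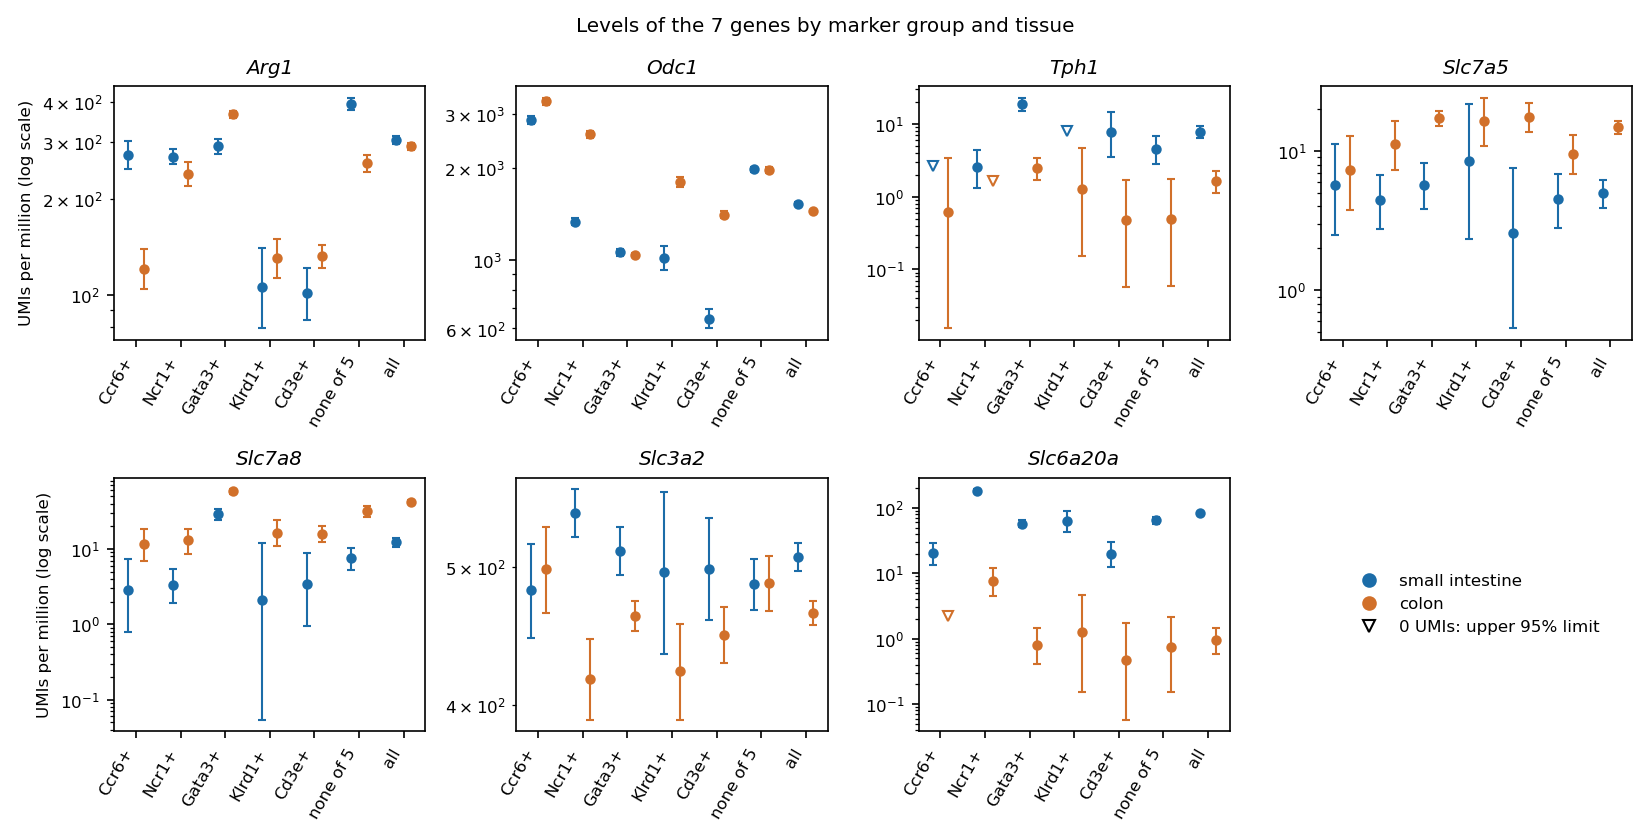
Level of each gene in CPM (log scale, each panel with its own range) by marker group, in cells with none of the 5 markers and in all cells, with the small intestine left of the colon; bars are exact Poisson 95% intervals and open triangles are the upper limit where no UMI was found. Odc1 is highest in Ccr6+ cells of both tissues, Slc3a2 lies between 417 and 545 CPM in every marker group, and Slc6a20a is higher in small intestinal than in colonic cells of every group.

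The tissue difference of Arg1 depended on the group. It was 2.26-fold higher in small intestinal than in colonic Ccr6+ cells (1.90 to 2.69), and 0.795-fold in Gata3+ cells (0.750 to 0.843). Over all cells, most of whose Arg1 lay outside the Ccr6+ group, the ratio was 1.05 (1.01 to 1.08). Among Ccr6+ cells with none of the other 4 markers the levels were 270 and 77.0 CPM. Within colonic Ccr6+ cells, those that also had a Gata3 UMI held 185 CPM of Arg1 and the others 68.5 CPM, a ratio of 2.69 (1.98 to 3.70). In small intestinal Ccr6+ cells the same split gave 265 and 276 CPM. The colonic cells with both transcripts were deeper, at a median of 5372 UMIs against 3087 without Gata3, and the small intestinal ones less so, at 2531 and 2341. Doublets were kept, and their part in this split was not tested.

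Within Gata3+ cells of the colon, Arg1 was higher where most other ILC2 genes were detected, with Il17rb as an exception. It stood at 417 CPM in cells with a UMI of Klrg1, an inhibitory receptor carried by ILC2, and at 250 CPM in cells without one (ratio 1.67, 1.56 to 1.79). With and without Il1rl1, the receptor of interleukin 33, it stood at 445 and 329 CPM (ratio 1.35, 1.28 to 1.44). It was lower in colonic Gata3+ cells with Il17rb, a subunit of the interleukin 25 receptor, at 330.1 CPM with and 379 CPM without (ratio 0.872, 0.817 to 0.930), and with Cd3e, at 217 and 385 CPM.

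Small intestinal Gata3+ cells did not show the colonic pattern of Arg1. It stood at 289 CPM with and 291 CPM without Klrg1 (ratio 0.992, 0.893 to 1.10), and the interval for Il1rl1 (ratio 1.19, 0.982 to 1.44) also included 1. It was lower with Il17rb, at 252 and 308 CPM (ratio 0.820, 0.729 to 0.920). It was also lower with Il13 (ratio 0.782, 0.621 to 0.973), Areg (0.884, 0.791 to 0.986) and Hpgds, a prostaglandin synthase of ILC2 (0.779, 0.603 to 0.993), which in the colon had ratios of 1.18, 1.07 and 1.14. With and without Ncr1 it stood at 269 and 297 CPM in the small intestine (ratio 0.907, 0.799 to 1.03).

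Odc1 (chromosome 12, 17544794 to 17551505, plus strand) was highest in Ccr6+ cells, at 2865 CPM (2777 to 2955) in the small intestine and 3307 CPM (3219 to 3396) in the colon. Ccr6+ cells exceeded the other cells of their tissue 2.06-fold (1.99 to 2.13) and 2.54-fold (2.47 to 2.61). Gata3+ cells were below the rest of their tissue, at 1062 against 1762 CPM in the small intestine and at 1041 against 2075 CPM in the colon. Thinned to 1000 UMIs, Odc1 was detected in 82.8% of small intestinal and 89.1% of colonic Ccr6+ cells, and in 48.0% and 39.2% of Gata3+ cells. Ccr6+ cells of the colon were deeper than those of the small intestine, with medians of 3443 and 2366 UMIs.

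Ncr1+ cells broke this order between tissues. Their Odc1 stood at 1337 CPM (1304 to 1370) in the small intestine and 2579 CPM (2513 to 2647) in the colon, a ratio of 0.518 (upper bound 0.537). Small intestinal Ncr1+ cells lay below the other cells of their tissue (ratio 0.829, 0.805 to 0.853) and colonic ones above (1.95, 1.89 to 2.01). Klrd1+ cells went the same way, at 1022 and 1806 CPM, as did Cd3e+ cells, at 646 and 1410 CPM, whereas the interval of Gata3+ cells included 1 (ratio 1.02, 0.988 to 1.05).

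The gap in Ncr1+ cells was seen at each quartile of the cells. After thinning, small intestinal Ncr1+ cells had a 25th percentile of 0, a median of 1 and a 75th percentile of 2 Odc1 UMIs, and colonic ones 1, 2 and 4. Among Ncr1+ cells with none of the other 4 markers the levels were 1371 and 3151 CPM. Cells with a UMI of Il22, the cytokine of ILC3, held more Odc1 than Ncr1+ cells without one in both tissues, at 1429 against 959 CPM in the small intestine and at 2962 against 2093 CPM in the colon. Il22 was detected in 1257 of the 1605 small intestinal and 316 of the 665 colonic Ncr1+ cells.

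**Figure D2:**
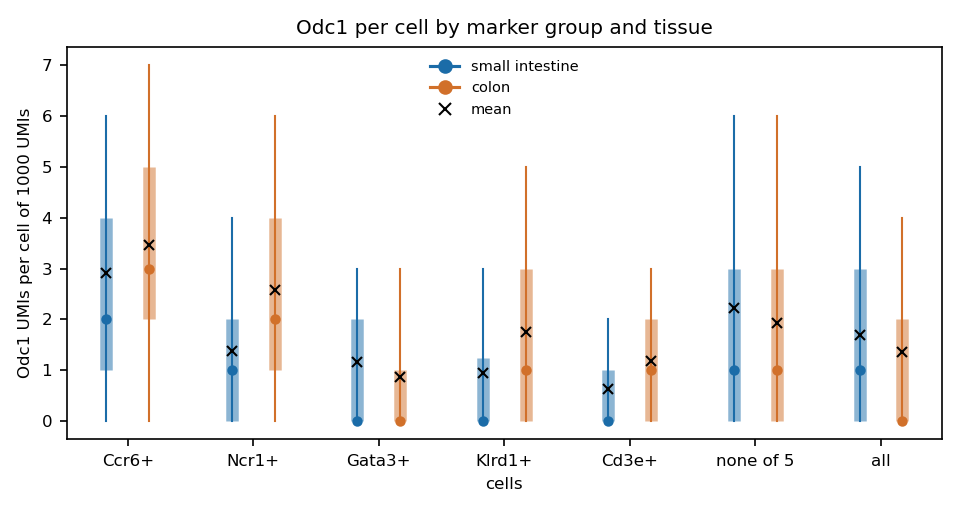
Odc1 UMIs per cell after each cell was thinned to 1000 UMIs, with the small intestine left of the colon: points are medians, crosses means, thick bars the 25th to 75th and thin lines the 10th to 90th percentile of cells. Ccr6+ cells have medians of 2 and 3, and colonic Ncr1+ cells a median of 2 against 1 in the small intestine.

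Inside the Gata3+ group, Odc1 was lower with Klrg1 and higher with Ncr1. With and without Klrg1 it stood at 513 and 1509 CPM in the small intestine and at 862 and 1439 CPM in the colon. With and without Ncr1, the gene of an activating receptor of ILC3 and NK cells, it stood at 1247 and 1003 CPM in the small intestine (ratio 1.24, 1.17 to 1.32) and at 2276 and 952 CPM in the colon (ratio 2.39, 2.28 to 2.51). Over all cells, Odc1 was detected in a smaller share of Arg1+ cells than of other cells in the colon and in about the same share in the small intestine: in the thinned colon data 38.9% of Arg1+ cells (36.4 to 41.3) and 50.8% of the other cells (49.5 to 52.1) had an Odc1 UMI, and in the small intestine 58.8% and 58.3%. These shares pool the groups, and within each colonic group the gap was smaller. The colonic shares were 35.8% and 40.4% in Gata3+ cells, 75.7% and 75.5% in Ncr1+ cells and 43.1% and 52.1% in Cd3e+ cells. In Klrd1+ cells they were 55.6% and 60.2%, and in Ccr6+ cells 81.8% and 89.8%.

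The list of arginine and polyamine genes held about as many tissue differences as all genes did. Of its 24 genes in the table, 21 had at least 20 UMIs in Gata3+ cells. At least 2-fold apart were 1 gene on the small intestinal side, as were 7.42% of all measured genes, and 1 on the colonic side, as were 4.4%. The list's median log2 ratio was 0.01, against 0.16 over all genes. The gene higher in the colon was Ass1, argininosuccinate synthase, which takes part in remaking arginine from citrulline. It stood at 7.10 CPM in small intestinal and 45.1 CPM in colonic Gata3+ cells, 6.35-fold higher in the colon (4.54 to 9.16), and it was also over 2-fold higher in the colon in each of the other 4 marker groups. Ccr6+ cells had 1 small intestinal and 36 colonic UMIs of it (interval 5.17 to 1245) and Klrd1+ cells 2 and 31 (1.18 to 40.0). In those colonic groups 27.8% to 34.7% of cells also had a Gata3 UMI, and Ass1 was not split by Gata3. Nos2, the inducible nitric oxide synthase that competes for arginine, had 13 and 9 UMIs in Gata3+ cells and was 3.85-fold higher in the small intestine (1.52 to 10.2).

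In Ncr1+ cells, where 9.26% of all measured genes passed 2-fold on the small intestinal side and 4.13% on the colonic side, 2 and 1 of 21 measured list genes did so. Sat1, which acetylates polyamines for breakdown or export, stood at 514 CPM in small intestinal and 195 CPM in colonic Ncr1+ cells (ratio 2.63, 2.37 to 2.92). Azin1, which frees ornithine decarboxylase from its antizymes, stood at 136 and 91.9 CPM in Ncr1+ cells and at 147 and 70.9 CPM in Cd3e+ cells, where the ratio was 2.07 (1.71 to 2.51). In Cd3e+ cells, where 5.12% of genes passed on the small intestinal side and 4.32% on the colonic side, Azin1 of 19 measured did so on the small intestinal side and Odc1 and Ass1 on the colonic side. Amd1, which makes the aminopropyl donor for spermidine, stood at 30.9 and 68.6 CPM in Ccr6+ cells, 2.22-fold higher in the colon (1.55 to 3.23).

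Tph1 (chromosome 7, 46644641 to 46672537, minus strand) was a rare transcript, with 117 small intestinal and 36 colonic UMIs. Gata3+ cells held 95 and 33 of them. Their level was 18.8 CPM (15.2 to 22.9) in the small intestine and 2.44 CPM (1.68 to 3.43) in the colon, a ratio of 7.68 (5.12 to 11.8). Against the other cells of their tissue, Gata3+ cells were 8.53-fold higher in the small intestine (5.32 to 14.2), and 7.18-fold in the colon (2.25 to 36.6), where the other cells had 3 UMIs.

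Few Gata3+ cells carried the transcript, 42 small intestinal and 19 colonic ones. The 10 cells with the most UMIs held 56.8% of the small intestinal and 72.7% of the colonic Gata3+ UMIs, so the ratios of Tph1 rest on few cells, which the counting intervals do not take into account. After thinning, Tph1 was found in 1.10% of small intestinal (0.651 to 1.73) and 0.142% of colonic Gata3+ cells (0.0522 to 0.309). No UMI was found in cells with Cd3e alone, 0 of 282 and 0 of 870 cells, which allows shares of up to 1.06% and 0.345%. A single small intestinal cell reached 12 UMIs. Mast cells and enterochromaffin cells are other known sources of tryptophan hydroxylase. Small intestinal cells with at least 3 UMIs of a mast cell list held 1 of the 117 Tph1 UMIs, and 4 cells with as many of an epithelial and enterochromaffin list held 3. In the colon these cells held 3 and 0 of the 36. Of the 7 genes of the mast cell list, 5 were in the count table. The list came to 230 CPM in colonic Ccr6+ cells, where its genes Cpa3, Mcpt1 and Fcer1a had no UMI. The 156 small intestinal and 213 colonic cells it picked are therefore not shown to be mast cells, and a mast cell source of Tph1 was not tested.

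Within small intestinal Gata3+ cells, Tph1 was higher where ILC2 genes were detected. It stood at 47.5 CPM with and 5.73 CPM without a UMI of Il17rb, a ratio of 8.29 (5.01 to 14.3). With and without Klrg1 it stood at 35.1 and 5.38 CPM, and with and without Il5 at 65.9 and 13.1 CPM. With Ncr1 it stood at 9.08 CPM and without it at 21.8 CPM (ratio 0.417, 0.201 to 0.785). In the colon, where 33 UMIs were split, the ratio was 5.97 for Il5 (2.74 to 14.1) and 13.2 for Areg, the gene of the growth factor amphiregulin (4.10 to 67.5, with 3 UMIs in cells without it). The colonic intervals for Klrg1 (ratio 1.67, 0.705 to 4.55) and Il17rb (ratio 1.28, 0.560 to 2.75) included 1.

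**Figure D3:**
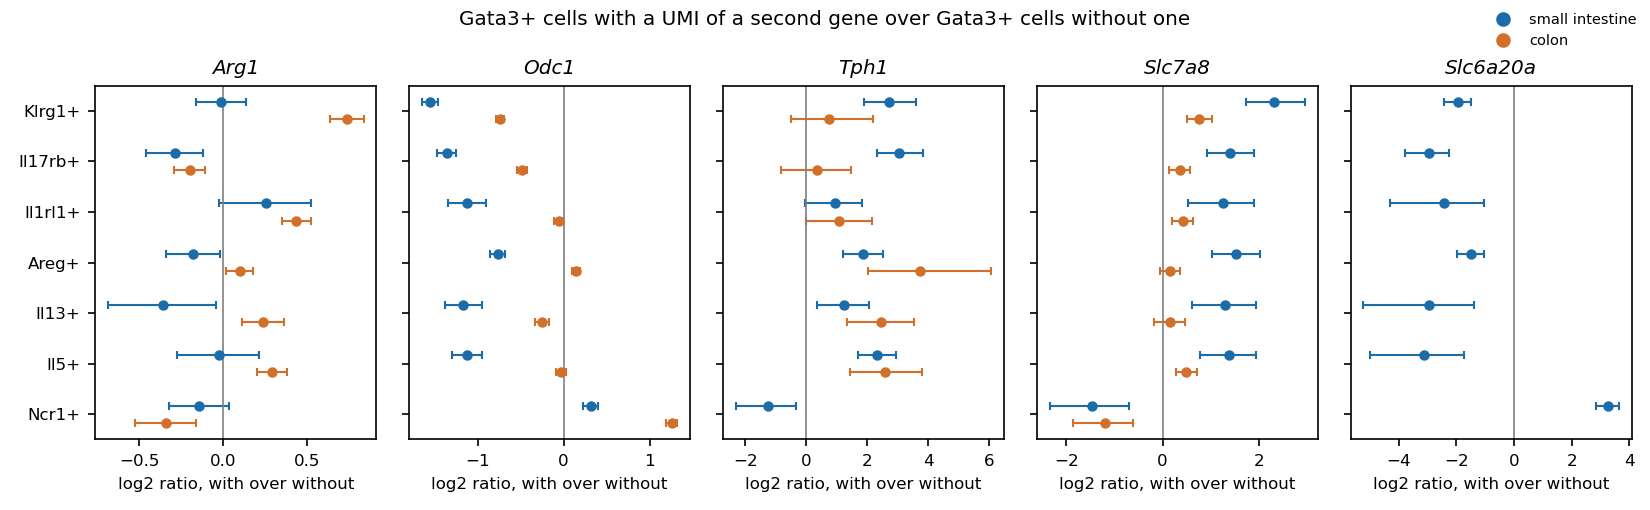
Log2 ratio of the level in Gata3+ cells with at least 1 UMI of a second gene over that in Gata3+ cells without one, for 5 of the 7 genes, with the small intestine drawn above the colon and bars giving 95% intervals of counting error; splits with under 20 UMIs or none on one side are left out. In the small intestine Tph1 and Slc7a8 lie to the right of 0 for the ILC2 genes and to the left for Ncr1, and Odc1 shows the opposite for Klrg1, Il17rb and Ncr1 in both tissues.

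Of 15 tryptophan and serotonin genes in the table, 9 were measured in Gata3+ cells, of which 2 passed 2-fold on the small intestinal side (7.42% of all genes) and 2 on the colonic side (4.4%). Ddc, the decarboxylase that makes serotonin from its precursor, stood at 16.0 CPM in small intestinal and 1.92 CPM in colonic Gata3+ cells (ratio 8.31, 5.28 to 13.5). In Ccr6+ cells, where Tph1 had 0 and 1 UMIs, Ddc stood at 63.2 and 15.9 CPM (ratio 3.97, 2.54 to 6.41). Slc18a2, the vesicular monoamine transporter, had 1 UMI in small intestinal and 84 UMIs in colonic Gata3+ cells, 31.5-fold higher in the colon with an interval of 5.50 to 1259.

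Slc7a8 (chromosome 14, 54722209 to 54781946, minus strand), a light chain for neutral amino acids, was a second gene led by Gata3+ cells, but with the higher level in the colon. It stood at 29.0 CPM (24.5 to 34.1) in small intestinal and 58.3 CPM (54.3 to 62.5) in colonic Gata3+ cells, a ratio of 0.497 (0.414 to 0.594). No other marker group passed 3.44 CPM in the small intestine or 16.6 CPM in the colon, and the intervals of those 4 groups overlapped in each tissue. Against the other cells, Gata3+ cells were 7.85-fold higher in the small intestine (5.44 to 11.6) and 3.41-fold higher in the colon (2.86 to 4.08).

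Slc7a8 was also higher in colonic cells of the other marker groups, but mostly in cells that carried Gata3 too. Ratios of small intestine over colon were 0.247 in Ccr6+ cells (4 and 19 UMIs), 0.259 in Ncr1+ cells (16 and 29 UMIs), 0.216 in Cd3e+ cells (4 and 67 UMIs) and 0.129 in Klrd1+ cells (1 and 26 UMIs), with upper bounds of 0.743, 0.494, 0.580 and 0.783. Cells with a Gata3 UMI held 15 of the 19 colonic UMIs in Ccr6+ cells, 24 of 29 in Ncr1+ cells and 55 of 67 in Cd3e+ cells. Cells with one marker alone held 0 and 3 UMIs for Ccr6, 1 and 3 for Ncr1, 0 and 2 for Klrd1 and 1 and 11 for Cd3e, too few to compare. Small intestinal cells with none of the markers stood at 7.49 CPM (5.22 to 10.4) and colonic ones at 31.6 CPM (26.4 to 37.5).

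Slc7a8 was also read in Gata3+ cells split by Ncr1, and the part of this overlap in the tissue difference was not tested. Small intestinal Gata3+ cells without an Ncr1 UMI stood at 34.2 CPM of Slc7a8 and colonic ones at 60.6 CPM, which is under 2-fold. Those with an Ncr1 UMI stood at 12.4 and 26.4 CPM, which is over 2-fold. Among cells with Gata3 and none of the other markers, thinned shares were 3.57% of small intestinal and 6.65% of colonic cells, against 0% and 0.690% in cells with Cd3e alone. The small intestinal share of 0% rests on 282 cells and allows up to 1.06%. Within small intestinal Gata3+ cells Slc7a8 stood at 51.8 CPM with and 10.4 CPM without Klrg1 (ratio 4.99, 3.30 to 7.76), and within colonic ones at 66.8 and 39.4 CPM (ratio 1.70, 1.43 to 2.03).

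Slc7a5 (chromosome 8, 121881150 to 121907694, minus strand), the other light chain for large neutral amino acids, was sparse in both tissues and higher in the colon. Over all cells it had 75 and 331 UMIs, or 4.97 CPM (3.91 to 6.23) and 14.8 CPM (13.3 to 16.5), a ratio of 0.336 (0.258 to 0.432). In Gata3+ cells it stood at 5.72 and 17.2 CPM (ratio 0.333, 0.218 to 0.492), in Ncr1+ cells at 4.43 and 11.2 CPM (ratio 0.395, 0.210 to 0.735) and in Cd3e+ cells, from 3 and 74 UMIs, at 2.58 and 17.6 CPM. The interval included 1 in Ccr6+ cells (8 and 12 UMIs) and in Klrd1+ cells (4 and 26 UMIs).

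In the order of Slc7a5 levels over groups and tissues, each interval overlapped the next. Colonic Ccr6+ cells were lowest in their tissue, at 7.35 CPM against 15.4 CPM in the other cells (ratio 0.477, 0.244 to 0.845), and colonic Gata3+ cells stood at 17.2 against 11.2 CPM (ratio 1.53, 1.20 to 1.96). Within colonic Gata3+ cells it stood at 27.7 CPM with and 13.1 CPM without Il5 (ratio 2.11, 1.61 to 2.76), and at 21.5 and 13.9 CPM with and without Areg (ratio 1.54, 1.18 to 2.01). The intervals of the splits by Il13, another type 2 cytokine, at 21.1 and 16.7 CPM (ratio 1.27, 0.832 to 1.86), and by Klrg1, at 17.7 and 16.0 CPM (ratio 1.11, 0.828 to 1.49), included 1.

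Slc3a2 (chromosome 19, 8706882 to 8723369, minus strand), the heavy chain shared by both light chains, was nearly level. It lay between 481 and 545 CPM in the small intestinal and between 417 and 498 CPM in the colonic marker groups. Every ratio of a marker group over the other cells of its tissue fell between 0.888 and 1.11. The largest tissue difference was in Ncr1+ cells, at 545 CPM (525 to 567) and 417 CPM (391 to 445), a ratio of 1.31 (1.21 to 1.41). Both light chains were higher in colonic Ncr1+ cells.

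Slc3a2 was found in similar shares of cells with and without Slc7a5. In the thinned colon data 32.1% of Slc7a5+ cells (23.5 to 41.7) and 35.3% of the other cells (34.2 to 36.4) had a Slc3a2 UMI, and in the small intestine, from 23 Slc7a5+ cells, 34.8% and 37.4%. For Slc7a8 the colonic shares were 40.5% (35.0 to 46.3) and 35.0% (33.9 to 36.1).

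Of the 11 genes of the SLC3 and SLC7 families in the table, 7 were measured in Gata3+ cells, with Slc7a14 (18 and 16 UMIs) past 2-fold on the small intestinal side (7.42% of all genes) and Slc7a5 and Slc7a8 on the colonic side (4.4%). In Ncr1+ cells, beside 9.26% and 4.13% of all genes, 6 were measured, with Slc7a6, a light chain for cationic and neutral amino acids, higher in the small intestine (9.70 and 4.48 CPM, ratio 2.16, 1.08 to 4.81) and the same pair higher in the colon. The list's median log2 ratio was 0.15 in Gata3+ and 0.02 in Ncr1+ cells, against 0.16 and 0.21 over all genes.

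**Figure D4:**
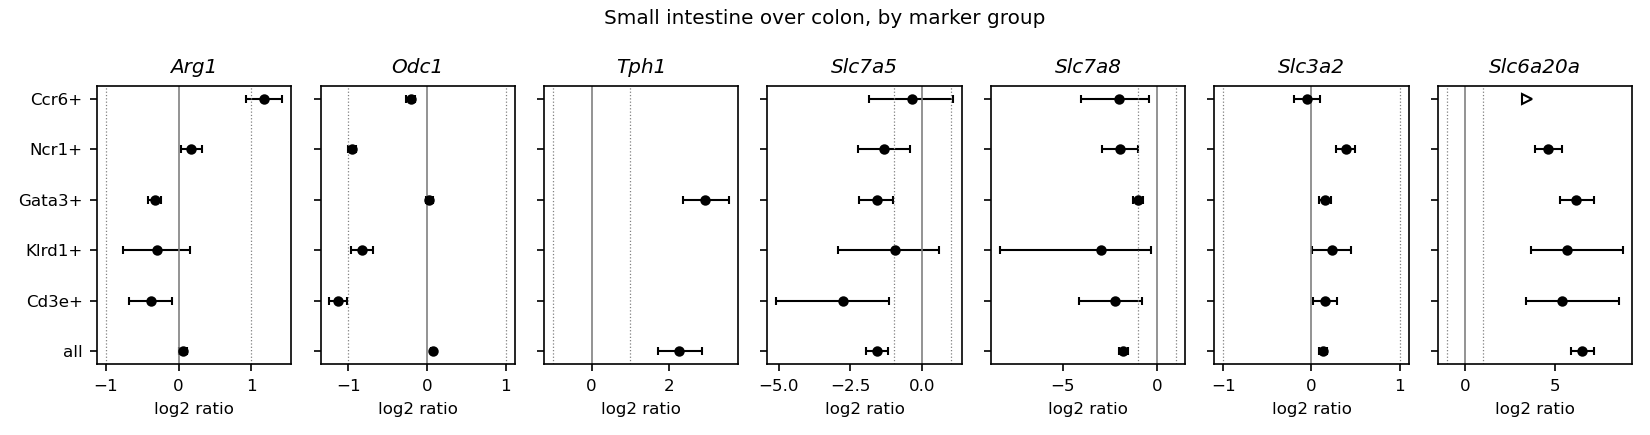
Log2 ratio of small intestine over colon for each gene in each marker group and in all cells, with 95% intervals of counting error and dotted lines at 2-fold; the open arrow is the ratio against a floor of 3 UMIs where the colon had 0 UMIs, and entries with under 20 UMIs are left out. Slc6a20a and Tph1 lie to the right, Slc7a5 and Slc7a8 to the left, and Slc3a2 near 0.

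Slc6a20a, the sodium-coupled carrier of proline and other imino acids, had the widest tissue difference of the 7 genes. It had 1253 UMIs in the small intestine, or 83.1 CPM (78.6 to 87.8), and 21 UMIs in the colon, or 0.940 CPM (0.582 to 1.44), a ratio of 88.4 (57.5 to 143). Small intestinal Ncr1+ cells led with 182 CPM (170 to 194), 4.80-fold above the other cells of the tissue (4.26 to 5.43). Klrd1+ and Gata3+ cells followed at 63.9 and 57.4 CPM with overlapping intervals, then Ccr6+ and Cd3e+ cells at 20.1 and 19.8 CPM. In the colon 17 of the 21 UMIs lay in Ncr1+ cells, at 7.62 CPM (4.44 to 12.2).

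The tissue difference was seen in all 5 groups, which share cells. It was 23.8-fold in Ncr1+ cells (14.8 to 41.1) and 70.6-fold in Gata3+ cells (38.9 to 143). The colonic sides rest on 9 Ncr1+ and 4 Gata3+ cells, with up to 6 UMIs in 1 cell, which the counting intervals do not take into account. In Klrd1+ cells 30 and 2 UMIs gave a ratio of 50.2 (12.7 to 433) and in Cd3e+ cells 23 and 2 UMIs a ratio of 41.7 (10.3 to 365). In Ccr6+ cells, with 28 UMIs in small intestinal and none in colonic cells, the lower limit of the exact interval was 8.33-fold. Set against a floor of 3 UMIs in the colonic group, the small intestinal level was 10.9-fold. Cells with one marker alone held 600 and 5 UMIs for Ncr1, 67 and 0 for Gata3, 7 and 0 for Cd3e and 5 and 0 for Klrd1. For Ccr6 alone they held 5 and 0 UMIs. The small intestinal level there, 5.50 CPM (1.79 to 12.8), overlapped the colonic upper limit of 6.46 CPM.

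Most of the Slc6a20a of small intestinal Gata3+ cells lay in those that also carried Ncr1. Gata3+ cells with an Ncr1 UMI stood at 180.0 CPM and those without at 18.9 CPM (ratio 9.51, 7.26 to 12.6). The same split of small intestinal Ccr6+ cells gave 123 CPM with and 4.94 CPM without Ncr1 (22 and 6 UMIs). Colonic Gata3+ cells with no other marker had 0 UMIs in 3476 cells, which allows up to 0.0863% of cells with a UMI. After thinning, Slc6a20a was found in 15.3% of small intestinal Ncr1+ cells (13.5 to 17.1) and in 1.42% of small intestinal cells with Cd3e alone. Free RNA was estimated to add 3.86 CPM in the small intestine.

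Within small intestinal Ncr1+ cells the transporter varied with other genes of the group. It was higher with Tbx21, the transcription factor T-bet, at 275 CPM with and 164 CPM without (ratio 1.68, 1.43 to 1.97). It was lower with Klrd1, at 79.5 and 188 CPM (ratio 0.424, 0.261 to 0.652), and with Il22, at 169 and 235 CPM (ratio 0.717, 0.614 to 0.840).

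Slc6a20a lies on chromosome 9 at 123634770 to 123678885 on the minus strand, and its 5′ end overlaps by 447 bases the annotated 5′ end of Ccr9, the gut homing chemokine receptor, on the plus strand (123678439 to 123784330). Their 3′ ends, which the assay reads, lie 149.6 kb apart. Downstream of Slc6a20a lies its near copy Slc6a20b. The bases from 250 to 61 before the RefSeq start of each copy are given to show how far these neighbours differ there, with the longest runs they share in capitals (RefSeq, GRCm38.p6, chr9:123678893-123679082 and chr9:123632599-123632788, both on the minus strand, 5′ to 3′).
Slc6a20a: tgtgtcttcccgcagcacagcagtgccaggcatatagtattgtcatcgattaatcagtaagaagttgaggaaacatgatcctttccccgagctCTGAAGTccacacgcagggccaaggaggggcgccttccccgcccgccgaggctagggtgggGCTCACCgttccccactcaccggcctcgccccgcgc
Slc6a20b: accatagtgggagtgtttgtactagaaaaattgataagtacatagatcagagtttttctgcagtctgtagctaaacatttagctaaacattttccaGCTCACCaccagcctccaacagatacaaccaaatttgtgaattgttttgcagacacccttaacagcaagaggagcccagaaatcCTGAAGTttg
The windows share 2 runs of 7 bases and none longer, and hold 61.1% and 39.5% G and C. The whole window of Slc6a20a falls inside the annotated span of Ccr9. Promoter sequences of 5 of the 7 genes were matched in the RefSeq table, which lists none for Arg1 and Slc7a5.

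Of the 12 protein-coding genes in the window of 300 kb on either side, Slc6a20a included, 11 were in the count table. Ccr9 was the other gene among them with a wide difference in the same direction. Ccr9 stood at 128 CPM in small intestinal and 10.0 CPM in colonic cells (ratio 12.8, 11.1 to 14.8), at 211 and 4.48 CPM in Ncr1+ cells (ratio 47.1, 25.5 to 98.5) and at 121 and 9.10 CPM in Gata3+ cells (ratio 13.3). Slc6a20b had 19 and 38 UMIs over all cells, a ratio of 0.740 (0.403 to 1.32). Reads of such close copies may be assigned to either or dropped, and the handling is not given in the sources used here. The other neighbours with at least 20 UMIs lay between 0.472 for Ccr1 and 1.68 for Fyco1 over all cells. Within marker groups some lay further out. Cxcr6 had a ratio of 2.63 in Ncr1+ cells (2.48 to 2.80) and 2.55 in Klrd1+ cells. Fyco1 reached 2.09 in Ccr6+ cells and Sacm1l 2.315 in Klrd1+ cells. On the colonic side Ccr1 stood at 0.171 in Ncr1+ cells (0.0658 to 0.399) and 0.276 in Gata3+ cells.

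Ccr9 was detected in a larger share of cells with Slc6a20a than of cells without it. In thinned small intestinal Ncr1+ cells Ccr9 was found in 33.9% of 245 cells with Slc6a20a (28.0 to 40.2) and in 14.3% of 1360 cells without it (12.4 to 16.2), at median depths of 2789 and 2762 UMIs. In thinned Gata3+ cells of the small intestine the shares were 31.9% of 72 cells and 9.10% of 1571 cells.

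**Figure D5:**
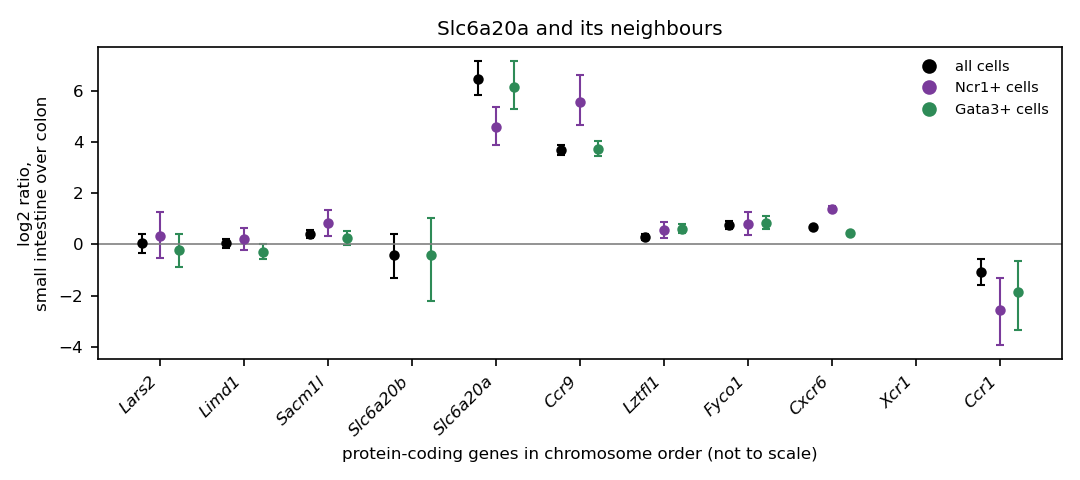
Log2 ratio of small intestine over colon for Slc6a20a and the protein-coding genes within 300 kb of it, in chromosome order and not to scale, over all cells, Ncr1+ cells and Gata3+ cells, with 95% intervals of counting error; values with under 20 UMIs or none on one side are left out. Slc6a20a and Ccr9 stand above all the other genes shown, and the copy Slc6a20b lies near 0 with wide intervals.

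Of 30 other amino acid transporters in the table, 19 were measured in Gata3+ cells (7.42% and 4.4% of all genes passed 2-fold on the small intestinal and the colonic side), with 3 past 2-fold on the small intestinal side, Slc6a20a and the lysosomal carrier Slc36a1 (18 and 19 UMIs) among them, and 1 on the colonic side, the mitochondrial ornithine carrier Slc25a15 (2.57 and 5.55 CPM, 2.16-fold, 1.19 to 4.25). In Ncr1+ cells 15 were measured, with 3 past 2-fold on the small intestinal side (9.26% of all genes) and none on the colonic side (4.13%). Slc43a2, a carrier of branched-chain and aromatic amino acids, stood there at 14.8 and 5.38 CPM (ratio 2.74, 1.48 to 5.56). Medians of the list were 0.08 in Gata3+ and 0.23 in Ncr1+ cells, against 0.16 and 0.21 over all genes.

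Of the genes of amino acid synthesis and breakdown, none passed 2-fold on the small intestinal side in any marker group. On the colonic side were 2 of 15 measured in Gata3+ cells (4.4% of all genes), Gpt and Gls2, and 2 of 14 in Ccr6+ cells (3.4%), Gpt and Bckdhb, where the intervals of both included 1. None of 14 in Ncr1+ cells, none of 14 in Cd3e+ cells and none of 11 in Klrd1+ cells was. Of the genes of the amino acid stress response, 1 of 9 measured in Ncr1+ cells passed on the small intestinal side (9.26% of all genes) and 1 on the colonic side (4.13%), and in Gata3+ cells 1 of 10 (7.42%) and 2 of 10 (4.4%). Nupr1, a stress-induced chromatin protein, stood at 29.3 CPM in small intestinal and 6.72 CPM in colonic Ncr1+ cells (ratio 4.36, 2.55 to 8.00), and Ddit4, an inhibitor of the growth kinase mTORC1, at 10.7 and 63.2 CPM, 5.88-fold higher in the colon (4.24 to 8.27). In Gata3+ cells Stc2, a secreted glycoprotein, stood at 1.38 and 10.1 CPM, 7.34-fold higher in the colon (3.47 to 18.6).

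Counted over the 7 genes, 2 of 7 measured in Gata3+ cells passed 2-fold on the small intestinal side (Tph1 and Slc6a20a), as did 7.42% of all measured genes, and 2 on the colonic side (Slc7a5 and Slc7a8), as did 4.4%. In Ccr6+ cells 2 of 6 were higher in the small intestine (Arg1 and Slc6a20a), where 7.47% of all measured genes were, and Slc7a8 in the colon, where 3.4% were. In Ncr1+ cells Slc6a20a was higher in the small intestine (9.26%) and Slc7a5 and Slc7a8 in the colon (4.13%). In Klrd1+ cells Slc6a20a was higher in the small intestine (7.17% of all measured genes) and Slc7a8 in the colon (4.89%). In Cd3e+ cells Slc6a20a was higher in the small intestine (5.12%) and Odc1, Slc7a5 and Slc7a8 in the colon (4.32%). Over all cells the counts were as in Gata3+ cells, beside 8.92% and 5.42% of all measured genes. The median log2 ratio of the 7 genes was 0.03 in Gata3+ cells, against 0.16 over all genes. Because the 7 genes were chosen with earlier results of these data known, their counts here and below are a description. The shares of all genes are no test of them.

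Against the other cells of their tissue, all 7 genes had at least 20 UMIs, and the counts past 2-fold are read beside the share of all measured genes. In Ccr6+ cells 1 was higher (5.83% of genes) and 3 lower (7.58%) for the small intestine, and 1 higher (8.16%) and 5 lower (8.35%) for the colon. In Ncr1+ cells 1 was higher (1.9%) and 2 lower (5.68%) for the small intestine, and 1 higher (4.38%) and 2 lower (7.48%) for the colon.

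Gata3+ cells had members on the higher side alone: 2 in the small intestine (2.75%, with 3.85% of genes lower), Tph1 and Slc7a8, and 3 in the colon (2.9%, with 6.4% lower), where Arg1 joined them. Klrd1+ cells had 0 higher (5.9%) and 3 lower (15.9%) in the small intestine, and 0 higher (4.81%) and 2 lower (8.93%) in the colon. Cd3e+ cells had 0 higher (3.93%) and 5 lower (11.6%) in the small intestine, and 0 higher (3.79%) and 4 lower (5.86%) in the colon.

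The genes whose levels were most like each member's over the 10 combinations of marker group and tissue were named by the correlation of log2(CPM + 10) among 8606 genes, as a description, since the 10 points share cells and libraries. For Arg1 they were Id2 (r = 0.946), Man1a and Etv5, for Odc1 Nfkbie (0.970), Rnf40 and Isy1, and for Tph1 Homer2 (0.877), Cybb and Nedd4. For Slc7a8 they were 9230102O04Rik (0.990), Mboat1 and Ccr8, for Slc7a5 Dtl (0.934), Raph1 and Ahctf1, for Slc3a2 Cnih4 (0.971), Prmt9 and Gbf1, and for Slc6a20a Eps8l3 (0.972), Aldh3a2 and Pcbd2. With cells of exactly 1 marker, Homer2 and Eps8l3 stayed first for Tph1 (0.978) and Slc6a20a (0.951), Ccr8 was second for Slc7a8, and the first gene of the other 4 members was another one.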

How the data were processed

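Single-cell 3′ libraries of sorted IL7ra+ ILCs from small intestine and colon were used as deposited: whole-number UMI counts per gene and cell, which the authors made with Cell Ranger 3.0.2 on mm10, per the submitters' processing notes. The annotation and the rule by which cells were selected are not given in the sources used here. The cells of the deposited count table had the same counts in the deposited matrices of all barcodes (0 values differed), and 60 barcodes occur in both libraries, against 56.2 by chance.

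Each group's UMIs per gene were added up and divided by its total. Intervals cover counting error only. Genes needed 20 UMIs over both sides to be counted at 2-fold. For shares of cells, every cell was thinned to 1000 UMIs, and none was shallower. Free RNA was profiled from barcodes with 10 to 50 UMIs and scaled by antibody transcripts. Scrublet marked 0 and 1 cells, too few to have worked, so doublets were kept, and 241 and 456 top-scoring cells were left out only as an alternative. Positions are from GENCODE (GRCm38). Python 3.11.15, numpy 2.4.6, scipy 1.17.1 and scanpy 1.11.5 were used. Gata3+ counts for 10945 genes were also simulated as Poisson draws, the model that the intervals assume. The intervals covered 95.7% of true ratios, and 98.5% of genes changed 4-fold were counted at 2-fold, beside 1.34% of the unchanged. This checks the computation only, since the draws hold no spread between cells, mice or libraries beyond counting error.

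The 7 genes and all lists were chosen with earlier results of these data known. Other genes named were, from each list and comparison of tissues, up to 2 per direction at least 2-fold apart, ordered by the bound closer to 1, and the 3 genes of most like pattern. Azin1 in Ncr1+ cells, the genes used to split groups and the neighbours of Slc6a20a were named outside this rule. List genes absent from the count table were not analysed here, and 1 gene used to split groups is not reported here.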

Additional observations from a re-analysis of the deposited data

Results flagged for a closer look

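For 4 contrasts of a marker group with the other cells of its tissue, the small intestine and the colon lay on opposite sides of 1, with both intervals leaving out 1. Whether the tissues differ was not tested, since each is 1 library. Odc1 in Ncr1+ cells was 0.829 times the level of other cells in the small intestine and 1.95 times in the colon. Odc1 in Klrd1+ cells was 0.662 times in the small intestine and 1.27 times in the colon. Arg1 in Gata3+ cells was 0.935 times in the small intestine and 2.07 times in the colon. Slc3a2 in Ncr1+ cells was 1.11 times in the small intestine and 0.888 times in the colon.

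The cells set against each group differed between tissues: Gata3+ cells were 29.9% of small intestinal and 55.9% of colonic cells, and Ncr1+ cells 29.2% and 8.81%. Their part in these results was not tested.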

How the results depend on the processing

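Of 863 recomputed log2 ratios of the 7 genes, 683 stayed within their counting interval and 178 moved out of it. A change of sign was counted only for ratios past 2-fold before recomputing, and the other 2 turned sign in this way. Tph1 in colonic Ccr6+ cells against other cells came to a log2 ratio of 0.0506 in cells with only that marker, and Slc7a5 in small intestinal Cd3e+ cells against other cells to 0.0368 after thinning. Ratios of small intestine over colon for Slc6a20a stayed between 3.75 and 6.52 on the log2 scale wherever both tissues had UMIs, and for Tph1 in Gata3+ cells between 2.56 and 3.44. Slc7a8 in Gata3+ cells lay between -1.31 and -0.60, and so on either side of 2-fold. Odc1 in Ncr1+ cells lay between -1.20 and -0.91. Slc7a5 in Ccr6+ cells, from 20 UMIs, lay between -0.60 and 2.14, in Klrd1+ cells between -2.14 and 0.74, and Arg1 in Klrd1+ cells between -0.45 and 0.87. These ratios, and Odc1 in Gata3+ cells (-0.48 to 0.40), took both signs but began under 2-fold, so they are not among the 2.

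Fewer cells or UMIs can leave genes under 20 UMIs, and some ratios between tissues lay on either side of 2-fold over the settings. Among the latter were the log2 ratios of Odc1 in Cd3e+ cells (-1.33 to -0.90), Slc7a5 in Ncr1+ cells (-1.68 to -0.99) and Arg1 in Ccr6+ cells (0.99 to 1.81). The number of the 7 genes past 2-fold between tissues moved by over 1.5 times in these cases. In Ccr6+ cells it was 3, and 1 when cells needed 2 marker UMIs, had only that marker, were cleared of doublets or were thinned. In Klrd1+ cells it was 2, and 1 with 2 marker UMIs or doublets left out, and 0 with only that marker or thinned. In Cd3e+ cells it was 4, and 2 with only that marker and 1 after thinning. In Ncr1+ cells it was 3, and 1 after thinning. Against the other cells of the tissue, the count for small intestinal Gata3+ cells was 2, and 4 with 2 marker UMIs, and that for colonic Cd3e+ cells was 4, and 2 after thinning.

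Over all genes, the counts past 2-fold in Ccr6+, Ncr1+, Gata3+, Klrd1+, Cd3e+ and all cells were 910, 1297, 1297, 856, 864 and 1715, and with at least 100 UMIs asked for 195, 496, 546, 126, 212 and 935. In Ccr6+ cells they were 601 with 2 marker UMIs and 605 after thinning, and in Klrd1+ cells 494 with only that marker and 513 after thinning. For marker groups against other cells, counts of 715 to 2359 became 235 to 1063 with at least 100 UMIs.

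No paired analysis was possible because each tissue is 1 library and the labels give no replicate numbers. Without replicates, no variation between mice or libraries enters any interval.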

Other observations

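Of the 117 small intestinal Tph1 UMIs, 15 (12.8%) lay in the 387 cells with at least 3 UMIs of a B and plasma cell list. Those cells held 6.75% of the Arg1 and 5.91% of the Slc6a20a UMIs of the tissue. The 10 small intestinal cells with the most Tph1 held 50.4% of it, so 15 UMIs can lie in few cells, and a link to the list was not tested. The list summed to 7188 CPM over all small intestinal and 2454 CPM over all colonic cells. In the free RNA of barcodes with 10 to 50 UMIs, Odc1 had 2598 CPM in the small intestinal and 2436 CPM in the colonic library, against 1527 and 1449 CPM in cells. Ccr9 stood at 46.2 CPM in the free RNA of the small intestine, against 128 CPM in its cells.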
